A study of Mus musculus with 10 samples.

Results

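Claudins and the proteins that anchor them were followed in 9 genes, 6 claudins (Cldn1, Cldn3, Cldn4, Cldn6, Cldn7 and Cldn8), occludin (Ocln), ZO-1 (Tjp1) and junctional adhesion molecule A (F11r), chosen by gene symbol from the 55414 genes of the expression table. All 9 were among the 20000 genes with the highest mean that were tested. The cells were mpkCCD, an immortalized mouse line of cortical collecting duct principal cells with a C57BL/6 strain background, grown on membrane filters, and every sample had 0.1 nM of the V2-receptor agonist dDAVP for 7 days, 4 of them in complete medium followed by 3 in simple medium. The 5 Camk2d-intact samples were the parental line and 2 samples each of 2 intact clones, which had been through transfection and kept CAMK2D, so they stand for 3 cell lines. The 5 Camk2d knockout (KO) samples were 5 clones from CRISPR-Cas9 deletion of the kinase CAMK2D, each grown from a single cell and picked for the absence of the protein on immunoblots. Guide RNAs against exon 8 gave KO 1 and KO 2, and those against exon 9 gave KO 3, KO 4 and KO 5. Each KO clone and the parental line had 1 sample, and whether the paired samples of an intact clone were separate cultures is not given in the sources used here, so p-values measure the spread between these samples.

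Tight junctions seal the space between epithelial cells near their apical edge. Claudins are four-pass membrane proteins whose extracellular loops pair across that space and set which ions pass, some acting as seals and others as pores. Occludin is a further four-pass protein of the strand, junctional adhesion molecule A is an immunoglobulin-type adhesion protein beside it, and ZO-1 is the cytoplasmic scaffold that ties claudins to actin. In the collecting duct, claudin-3, claudin-4, claudin-7 and claudin-8 are known constituents, and claudin-8 with claudin-4 is known for the paracellular path of chloride.

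Values are TPM, the authors' reads per gene divided by transcript length and scaled to the same total in every sample. Because of that scaling the depth of the samples is unknown and no counting interval is given, but levels of different genes can be compared. Between 19344 and 20052 genes per sample were above 0. Camk2d, the targeted gene, averaged 132 ± 6.97 TPM in the intact group against 24.7 ± 3.65 TPM in the KO group (SD, n = 5 each), with no overlap. Among the principal cell markers, Aqp2, the vasopressin-regulated water channel, was at 1281 to 5502 TPM. Fxyd4 was at 194 to 849 TPM and Avpr2 at 114 to 264 TPM. Kcnj1, Kcne1 and Scnn1b reached at most 0.19, 0.81 and 0.39 TPM, and Aqp4 was at 0.07 to 8.54 TPM. Of the thick ascending limb and distal tubule markers, Umod, Slc12a1, Cldn10 and Pvalb were listed at 0 in all 10 samples, and the summed level of the 9 markers was 0.74 to 1.25 TPM in intact samples and 0.42 to 1.12 TPM in KO samples.

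Cldn7, Cldn6 and Cldn3 were the most abundant members, and none of the 9 members differed between KO and intact cells past the threshold, an adjusted p under 0.05. Cldn8, in contrast, ran over a 10.6-fold range between cell lines, with high and low lines in both groups. In bulk RNA, fewer cells with a transcript and less of it per cell cannot be told apart. The other members held within 1.18-fold (Tjp1) to 2.47-fold (Cldn4) over the 8 lines.

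**Figure D1:**
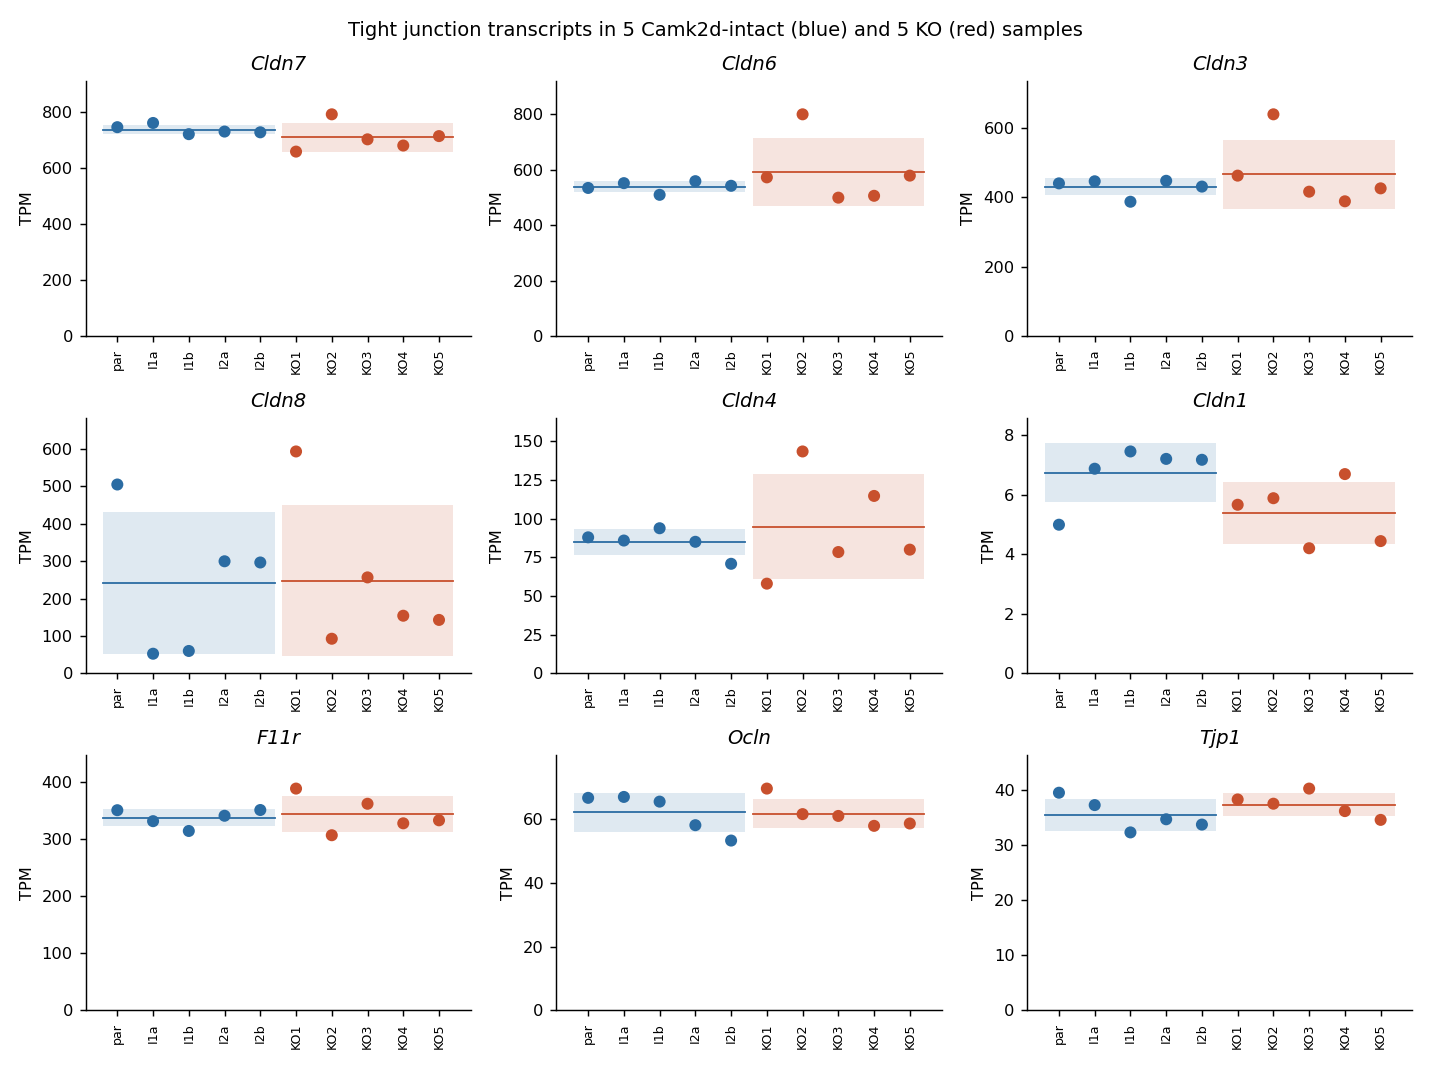
TPM (vertical axes, from 0) of the 9 members in each sample (horizontal axes; par, parental line; I1a and I1b, intact clone 1; I2a and I2b, intact clone 2; KO1 to KO5, KO clones). Lines are group means and bands are 1 SD (n = 5 per group); the groups overlap for all 9 members, Cldn8 spans 52.4 to 593 TPM, and KO 2 is the highest sample for Cldn3, Cldn4, Cldn6 and Cldn7.

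Claudin-7, a claudin of the distal nephron found at both tight junction and lateral membrane, had the highest mean level of the family, although Cldn6 was above it in KO 2. Its gene (ENSMUSG00000018569) lies on the plus strand at chr11:69964779-69967885 in GENCODE M21 on GRCm38, the annotation used for all positions here. Cldn7 was at 744 TPM in the parental line, 759 and 719 TPM in intact clone 1, and 729 and 726 TPM in intact clone 2. The KO clones KO 1 to KO 5 had 657, 790.15, 701, 679 and 713 TPM. Intact samples lay in a narrow band, with 4 KO clones below it and KO 2 above it. The group means were 736 ± 16.1 and 708 ± 50.6 TPM (SD, n = 5 each), a log2 difference, KO minus intact on log2(TPM + 1), of -0.06 (standard error 0.05, limma adjusted p = 0.819). Its 95% interval as a fold ran from 0.885 to 1.04.

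Cldn6 (ENSMUSG00000023906, chr17:23679249-23682446, plus strand) encodes claudin-6, known from embryonic and neonatal epithelia. Intact samples had 534 TPM in the parental line, 552 and 509 in clone 1, and 559 and 542 in clone 2. KO 1 to KO 5 had 572, 799.63, 499, 506 and 579 TPM. KO 2 stood apart from the other KO clones, of which KO 1 and KO 5 lay just above the intact samples and KO 3 and KO 4 just below them. The means were 539 ± 19.04 TPM in intact and 591 ± 122 TPM in KO samples (SD, n = 5 each), with a log2 difference of 0.11 (standard error 0.11, limma adjusted p = 0.840, interval as a fold 0.908 to 1.29).

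Cldn3 (ENSMUSG00000070473, chr5:134986214-134987472, plus strand) encodes claudin-3, a sealing claudin. Its level was 439.57 TPM in the parental line, 446 and 387 TPM in intact clone 1, and 447 and 430.3 TPM in intact clone 2. In KO 1 to KO 5 it was 462, 638, 416, 388 and 425 TPM, again with KO 2 on its own at the top and the rest within or near the intact range. The log2 difference was 0.09 (standard error 0.12, limma adjusted p = 0.878, interval as a fold 0.890 to 1.28), from means of 429.82 ± 25.0 and 466 ± 99.9 TPM (SD, n = 5 each).

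Cldn4 (ENSMUSG00000047501, chr5:134945119-134946934, minus strand) encodes claudin-4, the partner of claudin-8 in the chloride path. It lies 39.3 kb from Cldn3. Its intact values were 87.9 TPM in the parental line, 85.8 and 93.8 TPM in clone 1, and 85.0 and 70.8 TPM in clone 2. The KO clones spread to both sides of these, with 58.0, 143, 78.4, 115 and 79.9 TPM in KO 1 to KO 5. The means of 84.7 ± 8.47 and 94.9 ± 33.9 TPM (SD, n = 5 each) gave a log2 difference of 0.10 (standard error 0.21, limma adjusted p = 0.937, interval as a fold 0.778 to 1.47).

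Cldn1 (ENSMUSG00000022512, chr16:26356642-26371841, minus strand), a barrier claudin best known from skin, was the least abundant member. It was at 4.99 TPM in the parental line, 6.87 and 7.45 TPM in intact clone 1, and 7.20 and 7.17 TPM in intact clone 2. KO 1 to KO 5 had 5.66, 5.88, 4.20, 6.69 and 4.44 TPM. The 4 samples of the intact clones lay above all 5 KO clones, while the parental line fell among the KO clones. The log2 difference of -0.28 (standard error 0.14, interval as a fold 0.663 to 1.02) had the smallest p of the members, 0.068 before and 0.753 after adjustment with limma. An exact permutation test (two-sided), whose smallest possible p for 5 against 5 samples is 0.00794, gave 0.0952 (means 6.74 ± 0.997 and 5.37 ± 1.04 TPM, SD, n = 5 each).

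Among the partners of the claudins, F11r (ENSMUSG00000038235, chr1:171437535-171464603, plus strand) was the most abundant. It had 351 TPM in the parental line, 331 and 314 TPM in intact clone 1, 341 and 351 TPM in intact clone 2, and 388, 307, 362, 328 and 333 TPM in KO 1 to KO 5. Ocln (ENSMUSG00000021638, chr13:100496507-100552718, minus strand) was at 66.5 TPM in the parental line, 66.8 and 65.3 TPM in intact clone 1, 58.0 and 53.2 TPM in intact clone 2, and 69.4, 61.4, 60.9, 57.8 and 58.5 TPM in KO 1 to KO 5. Tjp1 (ENSMUSG00000030516, chr7:65296165-65527781, minus strand) was at 39.45 TPM in the parental line, 37.2 and 32.3 TPM in intact clone 1, 34.6 and 33.7 TPM in intact clone 2, and 38.2, 37.5, 40.2, 36.1 and 34.5 TPM in KO 1 to KO 5. In all of these partners the KO and intact samples overlapped, and for F11r the KO clones reached beyond the intact range on both sides. The log2 differences were 0.02 for F11r, -0.01 for Ocln and 0.07 for Tjp1, with standard errors of 0.06, 0.08 and 0.06. As folds, the 95% intervals ran from 0.919 to 1.12 for F11r, from 0.888 to 1.12 for Ocln and from 0.955 to 1.16 for Tjp1. Exact permutation tests gave p = 0.770 for F11r, 0.952 for Ocln and 0.262 for Tjp1.

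Over all genes, limma called 1 of 20000 in KO against intact cells (0.005%), Camk2d itself, and 1398 (6.99%) had an unadjusted p under 0.05. Of the 9 members, 0 were called and 0 had an unadjusted p under 0.05, and 0 had KO and intact samples that did not overlap, against 1.64% of the genes tested. The median log2 difference of the members was 0.07, beside 0.02 for all genes tested. Intervals differed in width between members. For Cldn7, F11r, Ocln and Tjp1 they lay within 0.885-fold to 1.16-fold, and for Cldn8 it ran from 0.398-fold to 3.43-fold.

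**Figure D2:**
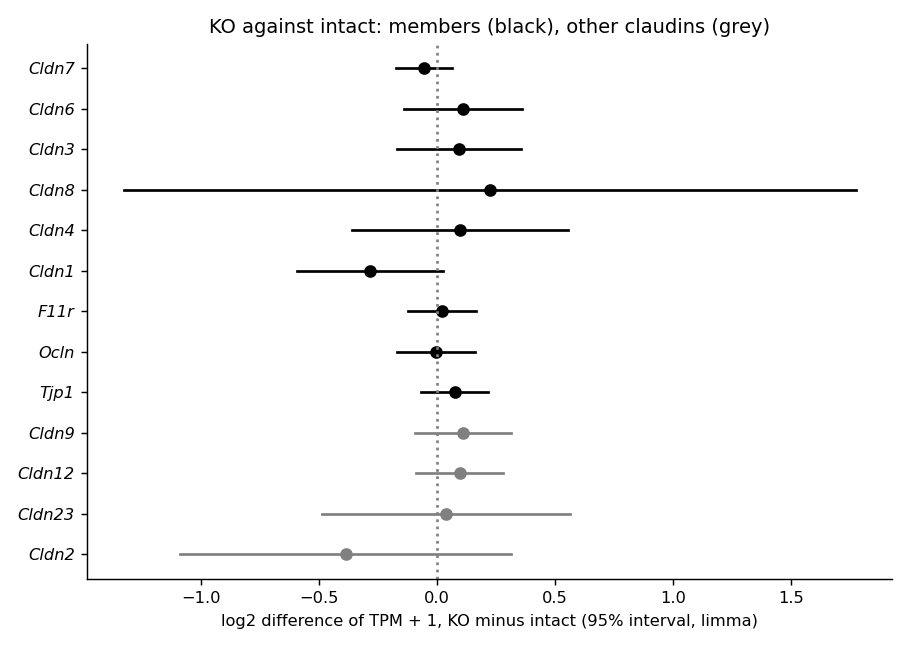
Log2 difference of TPM + 1, KO minus intact (horizontal axis), for the 9 members (black) and the 4 other claudins with a mean of at least 1 TPM (grey); points are limma estimates and bars 95% intervals (5 samples per group). All 13 intervals include 0, and that of Cldn8 is the widest, from -1.33 to 1.78.

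Cldn8 (ENSMUSG00000050520, chr16:88560828-88563183, minus strand) encodes the claudin that is most closely tied to the collecting duct, where it is needed for claudin-4 to reach the junction and is a target of ubiquitination by KLHL3. Klhl3 itself was at 0 to 0.02 TPM in these samples. The level of Cldn8 was 505 TPM in the parental line, 52.4 and 59.8 TPM in intact clone 1, and 299.72 and 296 TPM in intact clone 2. KO 1 to KO 5 had 593, 92.5, 257, 154 and 143 TPM. High and low lines occurred in both groups, and the 2 samples of a clone stood close together, 1.14-fold apart in clone 1 and 1.011-fold in clone 2. The group means hardly differed, 243 ± 190.2 and 248 ± 202 TPM (SD, n = 5 each). The log2 difference was 0.22 with a standard error of 0.70 (limma adjusted p = 0.963; exact permutation test, p = 0.802). It fell to -0.04 with 1 value per cell line and took a negative sign when KO 1 or a sample of intact clone 1 was left out (-0.17, -0.20 and -0.15), so the 5 against 5 comparison gives no direction for this gene.

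In descending order of the mean per line, Cldn8 ran from KO 1 (593 TPM) and the parental line (505 TPM) over intact clone 2 (298 TPM), KO 3 (257 TPM), KO 4 (154 TPM), KO 5 (143 TPM) and KO 2 (92.5 TPM) to intact clone 1 (56.1 TPM). Neighbours in this order were 1.08-fold to 1.69-fold apart. The step between KO 4 and KO 5, 1.08-fold, was smaller than the 1.14-fold gap between the samples of intact clone 1, and the steps from KO 1 to the parental line (1.18-fold) and from intact clone 2 to KO 3 (1.16-fold) were close to it. Lines with 1 sample have no spread of their own. Among the 2499 genes with a mean of at least 100 TPM, 5 had a wider range over the 8 lines than Cldn8, and the median range was 1.28-fold. Over the same genes, Cldn3 had 251 with a wider range, Cldn6 288, F11r 1306 and Cldn7 1710.

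The comparison of intact clone 2 with intact clone 1 asks how far lines that both keep CAMK2D differ beyond the spread between samples of a line. Cldn8 was 5.25-fold higher in clone 2 on the TPM + 1 scale, with a log2 difference of 2.39 (standard error 0.08, 95% interval as a fold 4.45 to 6.19, n = 2 each). Limma's p was 5.4e-05 before and 0.0776 after adjustment over the 20000 genes. At that size limma called 0 genes (0%), although 3386 (16.9%) had an unadjusted p under 0.05. The call depended on the setting. With the 13047 genes of at least 1 TPM the adjusted p of Cldn8 was 0.0126 and 247 genes (1.89%) were called, and with robust moderation it was 0.0116 and 181 genes (0.905%) were called. Over all 12 alternatives the adjusted p ran from 0.0116 to 0.257 and the log2 difference from 2.30 to 2.48.

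Ocln was the other member with an unadjusted p under 0.05 between the intact clones, with a mean of 66.1 TPM in clone 1 and 55.6 TPM in clone 2, a log2 difference of -0.25 (standard error 0.05, limma adjusted p = 0.201). The remaining members differed by between 0.866-fold (Cldn4) and 1.07-fold (F11r).

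**Figure D3:**
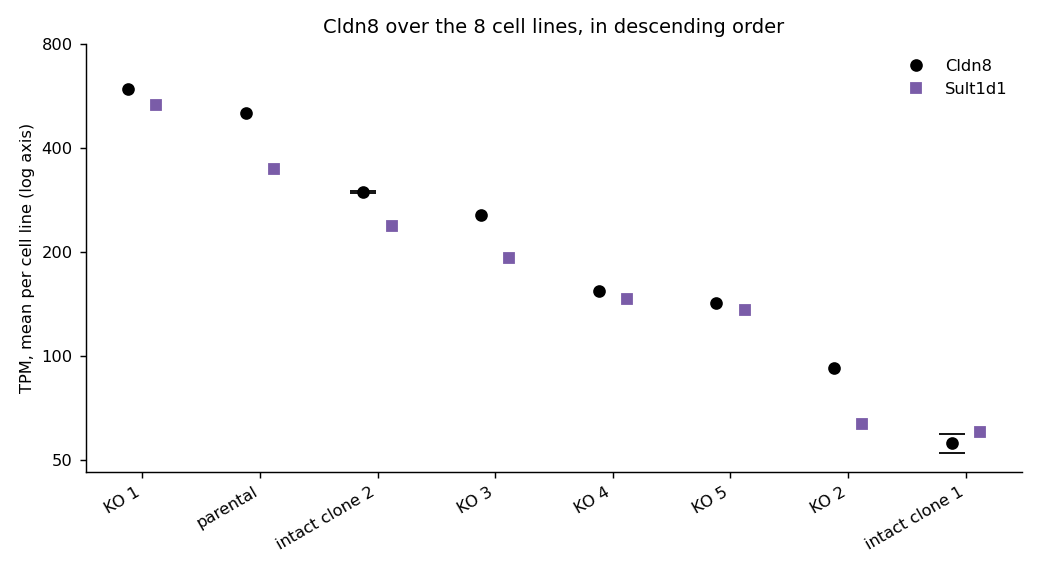
Mean TPM per cell line (vertical log axis) of Cldn8 (circles) and of Sult1d1 (squares), the gene whose pattern over the 8 lines was most like it, with lines in descending order of Cldn8. Bars mark the 2 Cldn8 samples of each intact clone; Cldn8 falls from 593 TPM in KO 1 to 56.1 TPM in intact clone 1, and Sult1d1 follows the same order.

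The genes most like Cldn8 over the 8 lines were looked up among the 13047 genes with a mean of at least 1 TPM, by Pearson's r of the mean log2(TPM + 1), as a description of 8 points that share the libraries of each line. Sult1d1, a cytosolic sulfotransferase, came first with r = 0.980 and Spearman's rho = 1.00. It was at 534.5 TPM in KO 1, 349 TPM in the parental line and 60.6 TPM in intact clone 1, an 8.82-fold range. Without KO 1 and intact clone 1, the lines farthest from the median, r was 0.970. Lonp1, a mitochondrial protease, mt-Nd4, a complex I subunit of the mitochondrial genome, Lrrc34 and Rhbdd1 came next with r of 0.937, 0.935, 0.932 and 0.925, but their own ranges over the lines were 1.19-fold, 1.302-fold, 2.23-fold and 1.16-fold. With the outer pair of lines left out, these were 0.890, 0.929, 0.834 and 0.820.

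Cldn4 and Cldn1 were the next most variable members, with an SD of log2(TPM + 1) over the lines of 0.39 and 0.25, beside 1.17 for Cldn8. For Cldn4 the closest patterns were those of Mettl16 (r = 0.981), an RNA methyltransferase, Ptbp1 (r = 0.980), a splicing regulator, Kpna3 (r = 0.977), a nuclear import receptor, Dnajc27 (r = 0.974) and Insyn1 (r = 0.971). Without KO 1 and KO 2, these were 0.916, 0.922, 0.885, 0.954 and 0.936. For Cldn1 they were Zfp354a (r = 0.940), Asap1 (r = 0.907), Pkia (r = 0.900), an inhibitor of protein kinase A, and the non-coding genes Gm4419 (r = 0.893) and 1300002E11Rik (r = 0.889), and without KO 3 and KO 5 they were between 0.731 and 0.864.

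KO 1 and KO 2, which came from the same guide, lay at opposite ends of the 8 lines for Cldn4, Cldn7 and F11r. For Cldn3 they were the highest and next highest lines. KO 2 had the highest level of 4 of the 9 members over the 8 lines, Cldn3, Cldn4, Cldn6 and Cldn7, and the lowest of F11r. KO 1 had the highest level of Cldn8, Ocln and F11r and the lowest of Cldn4 and Cldn7. How many of all genes were highest or lowest in either clone was not counted, so these counts have no background. For Cldn4 the gap was 58.0 against 143 TPM, and for Cldn8 it was 593 against 92.5 TPM.

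Whether clones of different guides differ was asked by setting exon 9 against exon 8 KO clones, with all 10 samples in the fit. Limma called 62 of 20000 genes (0.31%) and 0 of the 9 members. Cldn3 averaged 550.0 TPM over both exon 8 clones and 409.62 TPM over the 3 exon 9 clones, a log2 difference, exon 9 minus exon 8, of -0.41 (standard error 0.12, limma adjusted p = 0.245). Cldn6 was at 686 and 528 TPM, a log2 difference of -0.36 (standard error 0.12, limma adjusted p = 0.308). These 2 were the members with an unadjusted p under 0.05, a mark passed by 12.1% of all genes. Both differences were smaller without KO 2, at -0.17 for Cldn3 and -0.12 for Cldn6 (limma adjusted p = 0.413 and 0.609), in a fit that called 634 genes (3.17%). Without KO 1 they were -0.64 and -0.60 (limma adjusted p = 0.00524 and 0.00662), and 1732 genes (8.66%) were called. In these fits the lone exon 8 clone is assumed to vary like the other groups.

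The sequence upstream of the start sites is shown for the member claudins that were highest in KO 2. RefSeq's table for GRCm38.p6, with 250 bases before and 50 after each start, held 10 start sites for 8 of the 9 members. It has 1 start site for Cldn3, Cldn4 and Cldn6 and a pair for Cldn7. A cAMP response element, the site of CREB-type factors, has the letters TGACGTCA, the same on both strands. Among the 10 windows of the members it was found in 2, before Cldn6 and before the second start of Cldn7. It occurs in 1.79% of all 32851 promoters in the table. Enrichment was not tested, since the genes shown were picked by their level in KO 2. Cldn12 and Cldn23, which are not members, were also highest in KO 2. Cldn12 had no such element at any of its start sites, and Cldn23 has no entry. In the members the first base of the element lies 40 bases upstream of the start in Cldn6 and 38 bases upstream in Cldn7. The following stretches of 30 bases run 5′ to 3′ on the plus strand, at chr17:23679314-23679343 and chr11:69965372-69965401, with the element in capitals. In GENCODE M21 the former lies within an exon of Cldn6 and the latter has 6 bases in an exon of Cldn7.
Cldn6: aggtggtccagTGACGTCAttgagacttta
Cldn7: tgtcccttcagTGACGTCAggtcactcgac

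The neighbours Cldn3 and Cldn4 had no such letters in their windows. Their 250 upstream bases are given 5′ to 3′ in the direction of each gene, with GC boxes (GGGCGG on either strand, in 35.7% of promoters) and E-boxes (CACCTG on either strand, the core bound by SNAI and ZEB repressors, in 20.2%) in capitals. They cover chr5:134985964-134986213 on the plus strand for Cldn3 and chr5:134946935-134947184 on the minus strand for Cldn4, and neither overlaps an annotated exon.
Cldn3: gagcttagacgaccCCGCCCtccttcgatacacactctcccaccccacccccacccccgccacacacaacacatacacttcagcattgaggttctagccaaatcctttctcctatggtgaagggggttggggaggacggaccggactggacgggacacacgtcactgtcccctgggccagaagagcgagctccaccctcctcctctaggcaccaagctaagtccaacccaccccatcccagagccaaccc
Cldn4: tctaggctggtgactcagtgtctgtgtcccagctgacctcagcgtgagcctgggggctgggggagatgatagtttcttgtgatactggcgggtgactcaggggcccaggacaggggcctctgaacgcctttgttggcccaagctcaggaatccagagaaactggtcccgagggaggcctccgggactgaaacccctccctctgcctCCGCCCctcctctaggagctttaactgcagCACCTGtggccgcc

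Cldn3 had a single GC box in this stretch and Cldn4 a GC box and an E-box, the latter starting 14 bases before the gene. Within the whole 300-base windows, CACCTG was also found in Cldn3, past the start, in Cldn6, at the second Cldn7 start, in F11r and at both Ocln starts, and not in Cldn1, Tjp1 or at the first Cldn7 start. AACCNGTT, a site of grainyhead-like factors present in 2.09% of promoters, was in 0 of the 10 windows, and TATAAA, present in 13.6%, was likewise in 0. In the members no match of a motif overlapped that of another.

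Summed over all claudins, the samples held 2101 to 2716 TPM in intact and 2223 to 2851 TPM in KO cells, or 0.210% to 0.272% and 0.222% to 0.285% of all TPM. The groups overlapped (means 2387 ± 237 and 2482 ± 268 TPM, SD, n = 5 each; exact permutation test, p = 0.579). Cldn8 made up 18.6% of claudin transcripts in the parental line and 22.2% in KO 1, but 2.35% and 2.85% in intact clone 1 and 3.25% in KO 2. Without Cldn8 the claudin sum was 2041 to 2211 TPM in intact samples, and 2058 to 2205 TPM in the KO clones other than KO 2, which had 2758 TPM. The share of Cldn7 ran from 24.6% in KO 1 to 34.3% in a sample of intact clone 1.

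**Figure D4:**
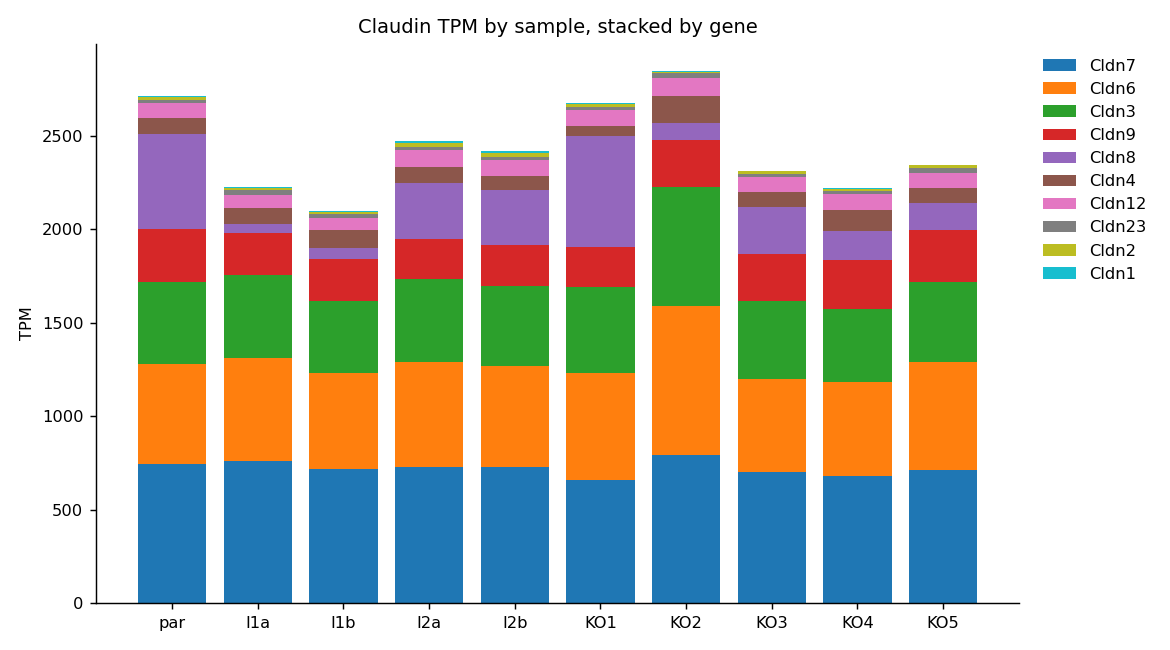
Claudin TPM by sample (bars stacked by gene, vertical axis from 0; sample names as in the plot of members by sample). Cldn7, Cldn6, Cldn3 and Cldn9 make up the base of every bar; the Cldn8 segment ranges from 52.4 to 593 TPM, and KO 2 has the tallest bar, 2851 TPM, with larger Cldn3 and Cldn6 segments.

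Of 29 other claudin genes in the table, 15 were listed at 0 in every sample and 4 had a mean of at least 1 TPM. Cldn9 (ENSMUSG00000066720, chr17:23682584-23684026, minus strand), whose gene ends 137 bases from Cldn6 on the opposite strand, was at 212 to 285 TPM. Cldn12, known for calcium permeability, was at 68.3 to 93.4 TPM, Cldn23 at 11.5 to 30.7 TPM and Cldn2, the cation pore of the proximal tubule, at 5.64 to 25.1 TPM. Their log2 differences, KO minus intact, were 0.11, 0.10, 0.04 and -0.39, with limma adjusted p-values of 0.819, 0.819, 0.988 and 0.819. KO 2 had the highest Cldn12 and Cldn23 of the 8 lines and the lowest Cldn2. Between the intact clones, Cldn2 and Cldn12 were 2.22-fold and 1.27-fold higher in clone 2 (limma adjusted p = 0.0893 for each), and Cldn23 was at 0.745-fold (limma adjusted p = 0.215). Cldn16, a thick ascending limb claudin, was at 0 to 0.21 TPM and had an unadjusted p of 0.0358 and an adjusted p of 0.684 with limma.

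The other genes of the junction were taken from lists, and in each of them limma called 0 genes between KO and intact cells, between guides and between the intact clones. Among 13 further membrane proteins of the tight junction, 11 were tested and 0 had an unadjusted p under 0.05, where 4.53% of all genes did so with a higher and 2.46% with a lower level in KO cells. The most abundant were Lsr (188 to 214 TPM), the tricellular junction protein angulin-1, Crb3 (142 to 171 TPM), an apical polarity protein, Cxadr (68.8 to 88.2 TPM) and Marveld3 (68.5 to 81.9 TPM).

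Of 35 scaffold and polarity genes in the table, 34 were tested, and 1 was higher in KO cells at an unadjusted p under 0.05. It was Ahnak, a giant scaffold protein, with 56.6 ± 2.43 TPM in intact and 71.9 ± 6.98 TPM in KO samples (SD, n = 5 each), which did not overlap (log2 difference 0.34, standard error 0.07, limma adjusted p = 0.378). Such a lack of overlap was found in 1.64% of all genes tested. With the exon 8 clones alone the limma adjusted p of Ahnak was 0.0441, in a fit that called 50 of 20000 genes. Under the other 21 alternatives Ahnak was not called. Ybx3, which shuttles between ZO-1 and the nucleus, led this list with 500.18 to 554 TPM, followed by Tjp3 (ZO-3, 255 to 385 TPM), Afdn (182 to 225 TPM) and Prkci (119 to 176 TPM). The median log2 difference of the tested genes was 0.05.

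Among 18 genes that act on claudins or junctions, 16 were tested and 1 passed an unadjusted p under 0.05, Lnx1, a ubiquitin ligase with claudins among its targets (38.9 ± 2.96 and 45.5 ± 5.13 TPM, SD, n = 5 each; limma adjusted p = 0.651). Spint2 (1069 to 1386 TPM), a protease inhibitor, Epcam (697 to 941 TPM), which stabilizes claudin-7, Tmprss2 (382 to 660 TPM; log2 difference -0.15, limma adjusted p = 0.819) and Sgk1 (149 to 943 TPM; log2 difference -0.46, limma adjusted p = 0.819) were the most abundant. In the adherens junction list 16 of 18 genes were tested and 1, Plekha7 (log2 difference 0.17, limma adjusted p = 0.708), passed the unadjusted mark. Cdh16 (1254 to 1934 TPM), the kidney-specific cadherin, Cdh1 (809 to 975 TPM), Ctnna1 (423 to 499 TPM) and Jup (404 to 514 TPM) led it. Of the desmosome and gap junction genes, 8 and 9 were tested and 0 passed, and Perp (92.3 to 137 TPM) was the most abundant desmosome gene. The desmosome genes summed to 344 to 358 TPM in intact and 363 to 407 TPM in KO samples, without overlap. Their median log2 difference was 0.11, beside 0.02 for all genes tested. Singly, 0 of the 8 desmosome genes tested had groups without overlap, against 1.64% of all genes tested. The sums were not tested, and no share over sums of other genes was counted. Gap junction sums overlapped, at 231 to 244 TPM and 219 to 292 TPM.

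Of 22 epithelial transcription factors, 17 were tested. At an unadjusted limma p under 0.05, 3 were higher and 2 lower in KO cells, where 4.53% and 2.46% of all genes were. Klf5 and Pax2 were among the 3 higher genes, and Ehf and Grhl1 were the 2 lower ones. Their log2 differences were 0.27, 0.24, -0.22 and -0.24, with limma adjusted p-values of 0.524, 0.659, 0.569 and 0.651. A lack of overlap between KO and intact samples was found in 1.64% of all genes tested. Grhl1, a grainyhead-like factor, had 22.3 ± 1.44 TPM in intact and 18.8 ± 2.49 TPM in KO samples (SD, n = 5 each) and was the member of the list without overlap between groups. Elf3 (484 to 665 TPM), Pax8 (306 to 361 TPM) and Gata3 (240.44 to 280.24 TPM) were among the most abundant. Of 7 mesenchymal transition factors, which include repressors of claudin genes, Snai2, Zeb1 and Twist2 were listed at 0 in all samples, and the summed level was 5.22 to 10.1 TPM in intact and 5.89 to 14.5 TPM in KO samples, mostly Twist1 (3.5 to 12.3 TPM).

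Cell type markers were summed beside these values, and their part in the results was not tested. Of 11 principal cell markers, all tested, Aqp2 was lower in KO cells at an unadjusted p under 0.05 (4317 ± 696 and 2485 ± 1024 TPM, SD, n = 5 each; log2 difference -0.89, limma adjusted p = 0.565, and 0.0354 with the exon 8 clones alone). The exon 8 fit called 50 of 20000 genes, and under the other 21 alternatives Aqp2 was not called. The summed level of the list was 4842 to 6808 TPM in intact and 2206 to 5024 TPM in KO samples. Of 12 intercalated cell markers, 6 were tested and Rhcg, an ammonia channel, was higher in KO cells at an unadjusted p under 0.05 (18.1 ± 39.5 and 87.9 ± 56.8 TPM, SD, n = 5 each; limma adjusted p = 0.651). The intact mean of Rhcg rested on the parental line (88.78 TPM), and without it the log2 difference was 5.035 in place of 3.85 (limma adjusted p = 0.479), while among the KO clones the lowest had 1.02 TPM. Atp6v1b1 was at 21.8 to 49.3 TPM, and Atp6v1g3 and Insrr were listed at 0. The sum was 30.2 to 124 TPM in intact and 37.2 to 188 TPM in KO samples. The 8 proximal tubule markers, with Slc34a1 and Slc5a12 at 0, summed to 18.4 to 35.0 TPM in intact and 12.3 to 31.7 TPM in KO samples, most of it Cldn2 and Lrp2. The 6 podocyte and parietal cell markers summed to 44.4 to 50.6 TPM and 45.0 to 62.8 TPM, with Wt1 at 0 and Podxl, a surface sialomucin, higher in KO cells at an unadjusted p under 0.05 (29.3 ± 1.76 and 35.0 ± 4.22 TPM, SD, n = 5 each; limma adjusted p = 0.597). The 7 endothelial markers summed to at most 0.30 TPM in any sample, with Cdh5, Kdr and Emcn at 0. The 9 fibroblast markers summed to 31.9 to 58.4 TPM in intact and 23.4 to 122 TPM in KO samples, nearly all Fn1, with Col1a2, Col3a1 and Lum at 0. The 7 immune markers summed to 15.02 to 21.9 TPM and 14.9 to 30.3 TPM, with Adgre1 among those listed at 0. Most of it was Csf1r (8.88 to 25.7 TPM) and Cd68 (3.51 to 9.05 TPM).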

How the data were processed

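RNA-seq was run on 10 mpkCCD samples. The authors made full-length cDNA libraries, sequenced 50-bp pairs, aligned them with STAR and quantified genes with RSEM on an Ensembl annotation. The values used here are the TPM the authors deposited, 1 column per sample (0 columns were unused). The authors ran edgeR on expected counts, which were not used here. TPM keep no depth, so no counting error is given.

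Genes were ranked by mean TPM, and the top 20000 entered limma as log2(TPM + 1), version 3.58.1 in R 4.3.3 (intensity trend). Benjamini-Hochberg adjustment was over all of them. The procedure was run on simulated independent samples with the spread of the intact samples in every group. That check does not cover paired samples or a wider spread in KO clones. Its changed genes were drawn from those with a mean log2(TPM + 1) above 1, so lower genes are not covered either. At a log2 change of 1 it recovered 95.5% of changed genes for KO against intact, 87.5% for exon 9 against exon 8 and 48.0% between intact clones. Log2 differences on this scale understate changes of low genes. Single genes had two-sided exact permutation tests (scipy 1.17.1). Groups came from the labels, and the guide of each KO clone from the study's clone table.

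The members and gene lists were chosen with earlier results of these data known. All members are named, other claudins with a mean of at least 1 TPM, up to 4 genes of each list by mean TPM, list genes with an unadjusted p under 0.05, and the 5 genes most like each of the 3 most variable members. A few list genes are not reported here. In GENCODE M21 transcripts, all 50-base windows of 8 members occurred in no other gene, as did 99.1% of those of F11r. Alternatives covered pseudocounts, filters, scalings, moderation, cell line, guide and single samples left out (cell line as a random effect with statmod 1.5.0). Tables and plots used pandas 2.3.3, numpy 2.4.6 and matplotlib 3.10.9 in Python 3.11.15.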

Additional observations from a re-analysis of the deposited data

Results flagged for a closer look

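Within the groups of 5 samples, the gap between the extreme sample and its nearest neighbour was divided by the range of the group and set against Dixon's 95% limit of 0.71. Over 13 genes in 2 groups, 4 of 26 groups passed it, where chance passes about 1 in 20 groups of independent samples. The 5 intact samples came from 3 cell lines, so that rate does not hold for the 3 intact groups among the 4. Cldn6 was at 799.63 TPM in KO 2, with the next KO clone at 579 TPM (a gap of 0.736 of the range). Cldn3 was at 386.72 TPM in the second sample of intact clone 1, with the next intact sample at 430.3 TPM (0.724). Cldn1 was at 4.99 TPM in the parental line, under 6.87 TPM in the nearest intact sample (0.764). Cldn9 was at 285.07 TPM in the parental line, above 225 TPM in the nearest intact sample (0.873).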

How the results depend on the processing

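Under every alternative to the KO against intact comparison, 0 of the 9 members were called. The number of genes called there was 1, and 2 with a pseudocount of 0.1, 50 with the exon 8 clones alone and 1 to 2 with a sample left out (2 without the parental line or without KO 2). For exon 9 against exon 8 clones it was 62, and 6 with 1 value per cell line, 36 with line as a random effect (consensus correlation 0.553) and 21 to 1732 with a sample left out, with 0 to 2 members called, the 2 (Cldn3 and Cldn6) without KO 1. Between intact clones it was 0, and 247 with a mean of at least 1 TPM, 11 without a trend and 181 with robust moderation, the member called with the first and the last of these being Cldn8. Causes were not tested.

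Some log2 differences changed sign, mostly those near 0. Cldn8 was among them, as were Cldn9 and Cldn23, which are not members. For KO against intact, Cldn3 was -0.0683 and Cldn6 -0.0328 with the exon 9 clones alone, Ocln 0.0803 and Cldn9 -0.00826 with the exon 8 clones alone, F11r -0.00732 with median ratio scaling, Cldn23 -0.00523 with quantile normalization and Cldn8 -0.0368 with 1 value per cell line. With a sample left out, the differences ran from -0.0249 to 0.15 for Cldn3, -0.0682 to 0.25 for Cldn4, -0.0029 to 0.17 for Cldn6, -0.20 to 0.61 for Cldn8, -0.0587 to 0.0223 for Ocln, -0.0241 to 0.0608 for F11r and -0.13 to 0.21 for Cldn23. For exon 9 against exon 8 clones, median ratio scaling gave 0.0027 for Cldn4 and 0.0097 for F11r, and leaving out a sample gave -0.67 to 0.62 for Cldn4, -0.18 to 0.0852 for Cldn7, -1.73 to 0.94 for Cldn8, -0.097 to 0.00976 for Tjp1 and -0.19 to 0.15 for F11r. Between intact clones, Tjp1 was 0.0013 with median ratio scaling and 0.00099 with quantile normalization, and leaving out a sample gave -0.046 to 0.0566 for Cldn1, -0.0228 to 0.18 for Cldn3, -0.0034 to 0.11 for Cldn6, -0.0619 to 0.0157 for Cldn7 and -0.12 to 0.08001 for Tjp1. The sign of the difference held for Cldn1, Cldn7 and Tjp1 under all 22 alternatives to KO against intact. Among these, the gene filters and the choices of moderation could not change the difference, and the others reused most of the same samples. No paired analysis was possible because the labels give intact and KO samples no shared replicate number, animal or culture. The depth of the samples is unknown, so a value listed at 0 sets no upper limit.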
